A study of Mus musculus with 14 samples.

Results

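Aoah overexpression was compared with the empty vector in MYC-driven mouse liver tumors that carried no added antigen. The members of this comparison were the 8 of 14 tumors labelled Luc, 4 with Aoah and 4 with vector, taken by their labels alone, together with all 29923 genes of the deposited expression table. Of these genes 13466 reached 1 TPM or more in at least 3 of the 14 tumors and were tested. TPM (transcripts relative to the library's total) is an abundance scaled for transcript length. All 8 tumors arose in C57BL/6 mice whose age is not given in the labels. A large volume of plasmid solution was driven into the tail vein (hydrodynamic delivery), which carries DNA into hepatocytes, and the SB100 transposase (Sleeping Beauty) was supplied to insert the transposons into the genome. The driver plasmid was pT3-EF1a-MYC-IRES-luciferase (MYC-Luc), in which the EF1a promoter drives MYC and luciferase; the second plasmid was PKT2/CLP-Aoah or PKT2/CLP-Vec. A plasmid for activated beta-catenin, pT3-N90-CTNNB1, is also listed without saying which tumors received it, and a protocol for anti-PD1 antibody is given although no tumor is labelled as treated. The other 6 tumors, LucOS, carried the same driver with the OVA, SIN and SIY antigens (3 with Aoah, 3 with vector) and served to estimate the spread and to ask where the response differed. The labels number the tumors and do not tell whether different mice gave them, so p-values measure only the spread between these samples.

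AOAH, acyloxyacyl hydrolase, is a lipase of macrophages and other phagocytes that removes secondary acyl chains from the lipid A part of bacterial lipopolysaccharide and so inactivates it. Hepatocytes receive bacterial products from the gut through the portal vein and answer inflammatory cytokines, above all interleukin-6 acting through Stat3, by secreting acute phase proteins and fibrinogen. In healthy liver they also express large families of detoxifying enzymes, which are commonly lost when liver tumors dedifferentiate. Bulk tumor RNA mixes tumor cells with infiltrating cells, and fewer cells of a type cannot be told apart from less RNA per cell.

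Between 11501 and 12724 genes reached 1 TPM in a Luc tumor, and library depth cannot be read from TPM values. Across genes, tumors of the same group correlated at r = 0.9404 to 0.9892 and tumors of different groups at 0.9075 to 0.9788, and no pair of tumors had identical values. Hepatocyte identity was checked with 11 defining genes, all of them tested. Their summed level was 7090 to 22950 TPM in Aoah tumors and 8078 to 10780 TPM in vector tumors; Alb, the main plasma protein (adjusted p up to 0.115 without any 1 of Aoah 1, Aoah 4, vector 1, vector 3 or vector 4), Ttr and Serpina1c (adjusted p = 0.0501 without Aoah 4) rose and Fgb fell. In Aoah 3 small noncoding RNA took 3.70% of TPM, against 0.136% to 0.311% in the other 7 tumors.

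Aoah itself stood at 504, 685, 284 and 519 TPM in Aoah tumors 1 to 4 and at 18.6, 0.74, 54.8 and 0.89 TPM in vector tumors 1 to 4; per-tumor values below are listed in this order. The groups did not overlap, but vector 1 and vector 3 held far more Aoah than vector 2 and vector 4 (log2 change 5.94, SE 0.95, adjusted p = 0.00228). Counts of genes are therefore also given without vector 1 and vector 3, where the Aoah change was 8.04. Adjusted p-values throughout are from limma's moderated test over all genes tested unless an exact test is named.

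Of the 13466 genes 2988 passed, which is 22.2%; 1068 rose (7.93%) and 1920 fell (14.3%). The 4 Aoah tumors all lay above the 4 vector tumors for 1594 genes (11.8%) and all below for 1226 (9.1%). The median change of all genes tested was -0.24 on the log2 scale, and 35.9% of genes had a positive change, so values for gene groups are read against that median. Rises made up 35.7% of calls, but 52.1% (2145 higher, 1975 lower) when each tumor was centred on its median, 55.4% (713 and 575) without the filter on low values and 47.5% (1230 and 1358) when only the 8 Luc tumors entered the fit. Without Aoah 2 there were 1219 rises and 4050 falls, and without vector 2 there were 1080 and 3344. Leaving out any of the other 6 tumors gave 531 to 731 rises and 336 to 732 falls, the fewest of both without Aoah 4. Without vector 1 and vector 3 together, 265 rose and 96 fell. Of the 1068 rises 496 were called with each of the 8 tumors left out in turn (46.4%), and of the 1920 falls 318 (16.6%). Genes named below as having risen or fallen are among those unless another value is given beside them. A gene that reached the minimum of 1 TPM only with Aoah had to differ, so counts within lists describe the members tested and not all members. The shares of all genes, 7.93% higher and 14.3% lower, are the background for each such count, also where they are not repeated.

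**Figure D1:**
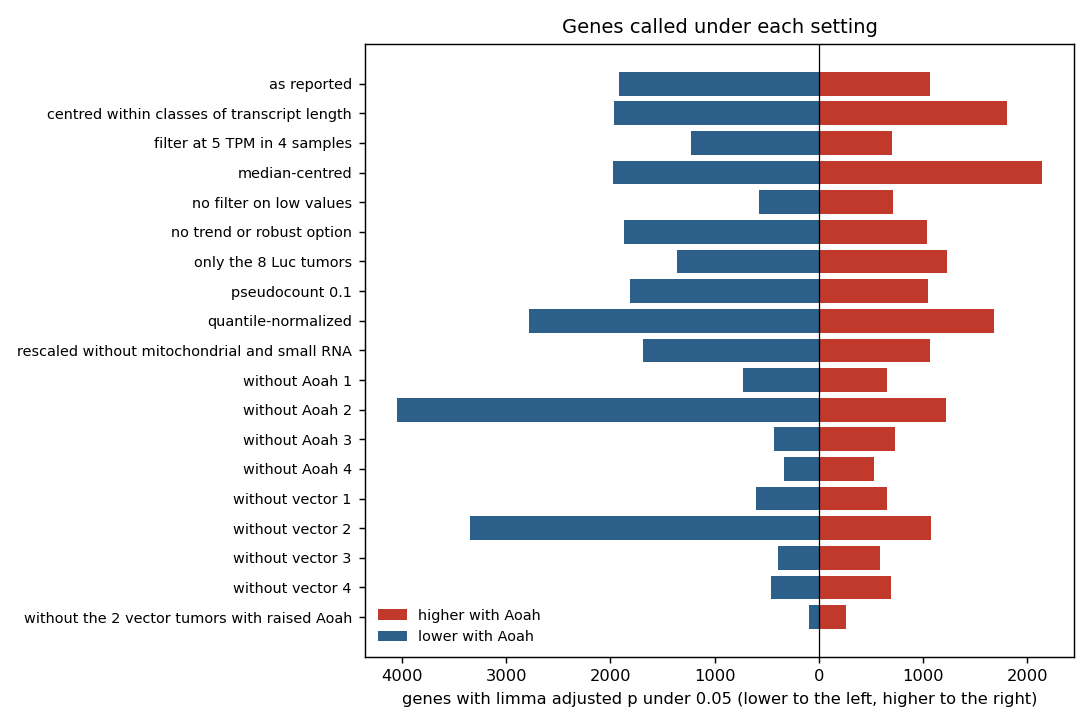
Number of genes with a limma adjusted p under 0.05 (horizontal axis), lower with Aoah to the left and higher to the right. The vertical axis holds the fit as reported and each alternative except the replicate number as a block, which is not drawn. Falls ranged from 96 to 4050 and rises from 265 to 2145 across the settings shown.

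The changes also followed transcript length. The longest annotated transcript had a median of 1843 bases for genes that rose, 3999 for genes that fell and 2926 for genes that did not pass. With genes divided by length into 4 classes of near-equal size, in the shortest class (66 to 1762 bases) the median change was 0.13, with 470 rises and 180 falls. In the longest class (4445 to 27908 bases) it was -0.56, with 75 rises and 770 falls, and the second and the third class lay between at -0.14 and -0.37. Genes under 1000 bases took 31.1%, 28.6%, 38.5% and 33.2% of TPM in the Aoah tumors and 29.1%, 30.7%, 29.2% and 27.0% in the vector tumors, so Aoah 3 was highest and the groups overlapped. With each tumor centred within 20 classes of transcript length, 1812 genes rose and 1963 fell, and rises made up 48.0% of calls. The median change of all genes in that fit was -0.003. That fit called 963 of the 1068 rises (90.2%) and 1372 of the 1920 falls (71.5%) in the same direction. The part of transcript length in single calls was not tested, and for some gene groups the count from this fit is given as well.

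**Figure D2:**
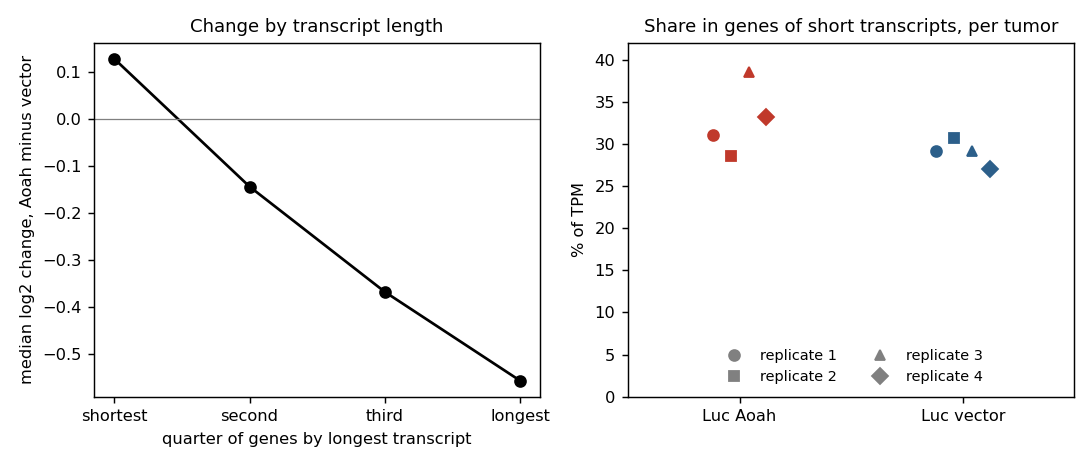
Left, median log2 change (Aoah minus vector, vertical axis) of tested genes in 4 classes of longest annotated transcript length (horizontal axis), which fell from 0.13 in the shortest to -0.56 in the longest class. Right, share of TPM (%) in genes with transcripts under 1000 bases for each tumor, where Aoah 3 was the highest at 38.5%.

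Detoxifying and secretory genes of mature hepatocytes gave most of the widest gaps above the vector tumors. Cytochrome P450 genes of families 1 to 4 encode oxidases of drugs, steroids and fatty acids; 75 were in the table and 56 were tested, of which 26 rose and 2 fell. Their median change was 0.95, against -0.24 for all genes. Cyp2c50 stood at 105, 125, 57.0 and 169 TPM with Aoah and 0.45, 1.18, 1.65 and 0.99 TPM with vector (log2 change 5.73, adjusted p = 7.29e-05). Its neighbor in the family, Cyp2c54, stood at 48.5, 49.2, 30.0 and 101 TPM with Aoah and 0.03, 0.2, 0.55 and 0.13 TPM with vector. Neither gene exceeded 1.65 TPM in a vector tumor, and Aoah 4 was the highest tumor for both. The coumarin hydroxylase Cyp2a5 stood at 327, 287, 229.7 and 762 TPM with Aoah and 3.93, 11.2, 17.4 and 5.76 TPM with vector, and Aoah 4 was again the highest tumor. Cyp3a11, the main drug-oxidizing P450 of mouse liver, was already abundant and rose from 303 to 625 TPM with vector to 1527 to 3587 TPM with Aoah (log2 change 2.47). Cyp2b9, a member usually high in female liver, stood at 4.42 to 20.1 TPM in Aoah tumors against 0 to 0.05 TPM in vector tumors, while Cyp3a16, a fetal and neonatal form, went the other way with 40.6, 29.9, 31.0 and 26.6 TPM with vector and 6.79, 4.31, 3.76 and 2.34 TPM with Aoah (log2 change -2.69, adjusted p = 0.000325). Cyp3a44 also fell (log2 change -1.52, adjusted p = 0.00836). Of the 26 P450 rises 17 were called with each tumor left out in turn, and 13 genes rose without vector 1 and vector 3. Reads of close copies within the Cyp2c, Cyp2a, Cyp3a, Ugt2b, Ces, Sult2a and Mup families can be assigned to the wrong member, so the split within each family is uncertain.

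**Figure D3:**
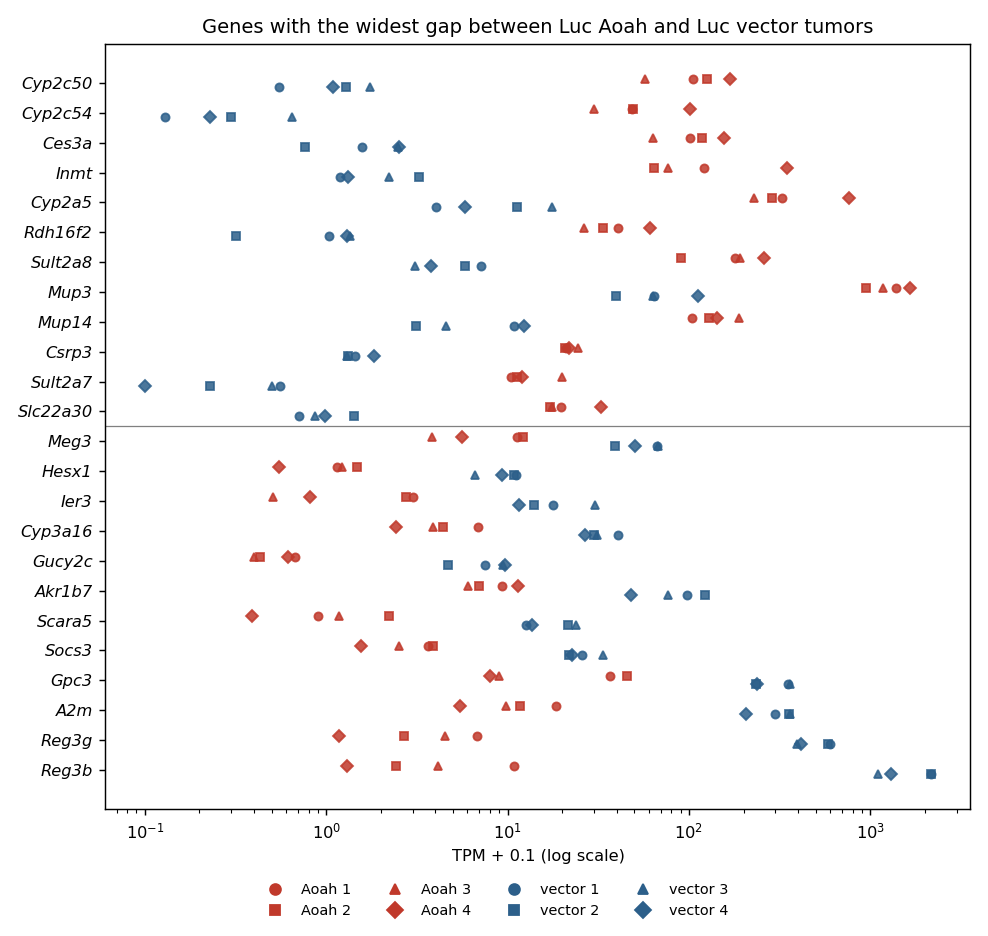
TPM plus 0.1 (log axis) in each of the 8 tumors for the 12 genes with the widest gap above and the 12 with the widest gap below the vector tumors (vertical axis). Red marks are Aoah tumors and blue marks are vector tumors, with 1 shape per tumor number, and in each of the 24 genes, which were chosen for their gap, the colors do not overlap.

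Conjugating enzymes rose as well. Of 15 glucuronosyltransferase genes tested (20 in the table), whose enzymes attach glucuronic acid to drugs, bilirubin and steroids, 11 rose and none fell, with a median of 1.68. Ugt3a1 stood at 11.8, 10.8, 7.94 and 10.8 TPM with Aoah and 0.44, 0.78, 0.39 and 0.56 TPM with vector (log2 change 2.87, SE 0.26, adjusted p = 2.47e-05), and Ugt2b36 rose from 50.5 to 72.2 TPM with vector to 303 to 539.8 TPM with Aoah. Neither gene overlapped between the groups. Carboxylesterases, hydrolases of lipid and drug esters, rose in 10 of 12 genes tested (18 in the table) with a median of 2.22. Ces3a stood at 102, 118, 63.7 and 157 TPM with Aoah and 1.47, 0.66, 2.39 and 2.42 TPM with vector, a wide separation (log2 change 5.33, adjusted p = 5.82e-05). Ces1g rose by 4.08, Ces3b by 2.95 and Ces2c by 2.83 on the log2 scale. Among sulfotransferases 6 of 14 rose and 1 fell. Sult2a8, which sulfates bile acids in the mouse, stood at 179, 90.8, 192 and 259 TPM with Aoah and 7.05, 5.75, 3.0 and 3.68 TPM with vector (log2 change 4.91, adjusted p = 1.18e-05). Sult1e1, the estrogen sulfotransferase, was the 1 that fell, at 8.57, 25.5, 16.7 and 6.77 TPM with vector and 1.14, 2.54, 3.04 and 2.39 TPM with Aoah. Of 23 glutathione S-transferase genes tested 11 rose, with a median of 0.95. Mgst1, a microsomal member abundant in liver, stood at 6095, 5659, 6452 and 7052 TPM with Aoah and 2492, 2613, 2259 and 2535 TPM with vector (log2 change 1.35, SE 0.15, adjusted p = 0.000136), and the lowest Aoah tumor lay far above the highest vector tumor. Gsta1 rose by 3.97 and Gsta3 by 1.66. As shares of the transcriptome, P450 genes took 0.679% ± 0.223 of TPM with Aoah and 0.225% ± 0.0493 with vector, and glutathione S-transferases 1.07% ± 0.112 against 0.486% ± 0.00933 (SD, n = 4 each); both differences gave the smallest exact two-sided permutation p that 4 against 4 allows (0.0286, adjusted over 9 shares 0.0514). Without vector 1 and vector 3, 6 glucuronosyltransferases, 4 carboxylesterases, 4 sulfotransferases and 4 glutathione S-transferases rose.

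Major urinary proteins are small pheromone carriers that male mouse liver secretes in bulk under growth hormone acting through Stat5. Of 20 tested members (22 in the table) 18 rose and none fell, and the median was 2.58. Entirely above the vector tumors lay 18, against 11.8% of all genes. Mup3 stood at 1379.8, 941, 1172 and 1654 TPM with Aoah and 64.4, 39.5, 63.4 and 112 TPM with vector (log2 change 4.25, SE 0.34, adjusted p = 1.18e-05), and Mup14 at 103, 129, 189 and 142 TPM with Aoah and 10.8, 3.03, 4.48 and 12.2 TPM with vector (log2 change 4.18, adjusted p = 1.81e-05). Mup22 rose from 36.4 to 180.3 TPM with vector to 1133 to 2529 TPM with Aoah. No Aoah tumor overlapped a vector tumor for these 3 genes. Together the family took 0.541% ± 0.143 of TPM with Aoah and 0.0466% ± 0.0162 with vector (exact two-sided permutation p = 0.0286, adjusted 0.0514). Without vector 1 and vector 3, 13 of the 20 rose. The promoters of 2 separated members are shown because these genes moved together and their reads are hard to assign; both windows are RefSeq sequence of build GRCm38.p6 (the expression table was made on mm39), 250 bases ending just before the annotated start, 5′ to 3′ on the gene's strand, Mup3 from chr4:62087318-62087567 and Mup14 from chr4:61303999-61304248, both on the minus strand. Capitals mark the longest run the 2 windows share, 22 bases.
Mup3: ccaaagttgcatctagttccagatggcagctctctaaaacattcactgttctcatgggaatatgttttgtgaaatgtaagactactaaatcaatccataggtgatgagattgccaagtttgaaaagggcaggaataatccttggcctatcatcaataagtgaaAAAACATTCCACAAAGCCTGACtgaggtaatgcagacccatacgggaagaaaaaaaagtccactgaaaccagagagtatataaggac
Mup14: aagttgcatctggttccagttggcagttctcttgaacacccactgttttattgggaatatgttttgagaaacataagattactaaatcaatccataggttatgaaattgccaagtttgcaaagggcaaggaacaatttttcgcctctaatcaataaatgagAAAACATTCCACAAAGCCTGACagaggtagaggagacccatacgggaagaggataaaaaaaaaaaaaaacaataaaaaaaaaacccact
Among 19 genes of the growth hormone and insulin-like growth axis 2 rose and 4 fell, shares not far from the 7.93% and 14.3% of all genes. Ghr, the growth hormone receptor, stood at 73.1, 66.4, 58.2 and 105 TPM with Aoah and 16.8, 13.9, 16.2 and 22.1 TPM with vector (log2 change 2.05, adjusted p = 0.000658). Igf1, the growth factor that liver makes in answer to growth hormone, stood at 65.0, 86.2, 53.8 and 106 TPM with Aoah and 14.0, 6.36, 15.4 and 16.8 TPM with vector (log2 change 2.51, adjusted p = 0.000986). Igfbp1, a binding protein that rises with fasting and injury, fell to 108, 108, 51.8 and 102 TPM from 697, 312, 448 and 407 TPM, and each of these 3 genes was separated between the groups. Of 12 genes usually higher in male liver 7 rose and none fell, while of 18 usually higher in female liver 4 rose and 4 fell. Over all genes 7.93% rose and 14.3% fell. Among the male-biased rises, Mup3, Mup12 and Mup20 are also in the urinary protein list and Ugt2b1 is also a glucuronosyltransferase. The male-biased count is therefore not separate from those lists. Mup20 stood at 1084 to 2539.9 TPM in Aoah tumors against 174 to 323 TPM in vector tumors. In the female-biased list Cyp17a1 fell (log2 change -1.96, adjusted p = 0.00274). 

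Changes in other metabolic lists were fewer or mixed. In retinol metabolism 9 of 21 genes rose and 1 fell, against 7.93% and 14.3% of all genes. Within length classes 14 rose and 2 fell. Rdh16f2, a short-chain dehydrogenase that oxidizes retinol and steroids, stood at 40.8, 33.4, 26.4 and 61.1 TPM with Aoah and 0.94, 0.22, 1.25 and 1.2 TPM with vector, and Cyp26a1, which degrades retinoic acid, rose from 0.05 to 0.87 TPM with vector to 2.29 to 7.09 TPM with Aoah. Of the aldo-keto reductases, which reduce steroids and aldehydes, 5 of 15 rose and 1 fell, against 7.93% and 14.3% of all genes. Akr1c6, the liver 17-beta-hydroxysteroid dehydrogenase, stood at 1413, 850.2, 1517 and 1858 TPM with Aoah and 125, 140.2, 139 and 146 TPM with vector (log2 change 3.29, SE 0.25, adjusted p = 1.11e-05). Akr1b7 fell from 97.5, 123.04, 76.5 and 47.6 TPM with vector to 9.23, 6.84, 5.95 and 11.3 TPM with Aoah (log2 change -3.18, adjusted p = 0.000191). The 2 reductases were each separated between the groups, in opposite directions. Inmt, a methyltransferase of indoleamines, stood at 121, 63.7, 76.2 and 347 TPM with Aoah and 1.09, 3.15, 2.11 and 1.22 TPM with vector, with Aoah 4 far above the other 3 Aoah tumors. In amino acid catabolism 7 of 34 genes rose and 2 fell, a share of rises well above the 7.93% background, led by Haao of the tryptophan pathway (log2 change 1.22, adjusted p = 0.000259) and Oat, ornithine aminotransferase (log2 change 2.56, adjusted p = 0.00124). In bile acid synthesis and transport 8 of 23 rose and 3 fell, and the falls were near the 14.3% of all genes that fell. Baat, which conjugates bile acids to taurine, stood at 118, 105, 119 and 172 TPM with Aoah and 21.2, 28.8, 23.4 and 34.8 TPM with vector (log2 change 2.21, adjusted p = 0.000975), and the uptake carrier Slco1b2 rose from 163 to 219 TPM with vector to 451 to 552 TPM with Aoah. Nr0b2, the receptor that represses bile acid synthesis, stood at 30.9, 17.8, 26.0 and 17.3 TPM with vector and 6.73, 6.95, 2.03 and 6.19 TPM with Aoah (log2 change -1.95, adjusted p = 0.00222); Aoah 3 was the lowest and all Aoah tumors were below all vector tumors. Among apolipoprotein genes 3 of 21 rose and 5 fell, against 7.93% and 14.3% of all genes. Apoc1, a small lipoprotein component, had the largest gain of mean TPM of any named gene, at 7866, 6141, 8384 and 12971 TPM with Aoah and 1798, 2756, 2396 and 2190.4 TPM with vector (log2 change 1.91, adjusted p = 0.000352). Scarb1, the receptor for high-density lipoprotein, fell (log2 change -1.54, adjusted p = 0.00947).

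Lipid and redox genes were mixed. Gpx1, the cytosolic glutathione peroxidase, stood at 3126, 2483, 3359.7 and 3490.1 TPM with Aoah and 661, 949.6, 661 and 913 TPM with vector (log2 change 1.98, SE 0.18, adjusted p = 2.47e-05). It was separated between the groups, as was Gpx4, which reduces lipid peroxides (745 to 1084 TPM in Aoah tumors against 344 to 511 TPM in vector tumors). In all, 4 of 21 Nrf2 and antioxidant genes rose and none fell (9 rose within length classes), and Gpx1, Gpx4 and the quinone reductase Nqo1 were called with each tumor left out in turn and also without vector 1 and vector 3. Of 24 cholesterol synthesis genes 6 rose and 1 fell (10 and 1 within length classes), with Msmo1 at 102 to 145 TPM in Aoah tumors against 33.8 to 47.8 TPM in vector tumors (log2 change 1.65, adjusted p = 0.00172). In fatty acid oxidation 2 of 32 rose and 5 fell, a share close to that of all genes (6 and 6 within length classes). The microsomal hydroxylase Cyp4a10 rose (log2 change 2.85, adjusted p = 0.00124), whereas Acadl (-0.78) and the ketone enzyme Bdh1 (-1.18) fell. Phospholipid remodeling had 1 rise and 5 falls among 25 genes, against 7.93% and 14.3% of all genes. None of them was called with each tumor left out in turn. Lpcat2, which rebuilds lysophospholipids, had the rise (log2 change 0.86, adjusted p = 0.0419; adjusted p up to 0.113 without any 1 of Aoah 1, Aoah 3, Aoah 4, vector 1, vector 2, vector 3 or vector 4), and Pla2g6, a phospholipase, was among the falls (log2 change -1.35, adjusted p = 0.0409; adjusted p up to 0.129 without any 1 of Aoah 1, Aoah 3, Aoah 4, vector 1, vector 3 or vector 4). Glycolysis had no rise and 3 falls among 25 genes, no more than the 14.3% of all genes that fell, and none of the 3 held with each tumor left out in turn; Gapdh stood at 829, 1247, 311 and 767 TPM with Aoah and 1364, 934, 1973 and 1787 TPM with vector, so Aoah 2 lay above vector 2 (log2 change -1.05, adjusted p = 0.0497; adjusted p up to 0.152 without any 1 of Aoah 1, Aoah 3, Aoah 4, vector 1, vector 3 or vector 4). 

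Several products of the inflammatory response of hepatocytes fell. The widest gaps of any named gene were those of 2 secreted lectins of the Reg family, which bind bacterial surfaces and are induced by interleukin-6 and interleukin-22. Reg3b stood at 2153, 2163, 1103 and 1296 TPM in the vector tumors and at 10.8, 2.34, 4.03 and 1.2 TPM in the Aoah tumors (log2 change -8.46, SE 1.27, adjusted p = 0.00181). Reg3g stood at 600.1, 587, 391.68 and 416 TPM with vector and 6.68, 2.59, 4.41 and 1.08 TPM with Aoah (log2 change -6.87, adjusted p = 0.00263). Every vector tumor thus lay far above every Aoah tumor for both lectins. Reg3a, at 17.3, 1.05, 0.64 and 1.93 TPM with vector, was at 0 in all 4 Aoah tumors (log2 change -1.87, adjusted p = 0.0275; adjusted p up to 0.0734 without any 1 of Aoah 1, Aoah 3, Aoah 4 or vector 4). Reg genes are also abundant in pancreas. Of 13 genes of pancreatic acinar cells in the table, Prss2 and Try4 were at 0 in all 8 tumors and Cpa1, Ctrb1, Pnlip and Cel at no more than 0.2 TPM in any. Their summed level was 22.01 to 31.9 TPM in Aoah tumors and 15.5 to 18.8 TPM in vector tumors. Most of it was Cela1, an elastase that rose (log2 change 0.65, adjusted p = 0.0231; adjusted p up to 0.0789 without any 1 of Aoah 1, Aoah 3, Aoah 4, vector 1, vector 3 or vector 4).

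Signaling genes of the interleukin-6 family and Stat3 targets moved with the lectins: 9 of 22 tested genes fell and 1 rose, with a median of -0.77. With each tumor left out in turn 6 falls were called every time, 4 fell without vector 1 and vector 3, and 8 fell when tumors were centred within length classes, where the median was -0.38. Socs3, the feedback inhibitor of cytokine receptors, stood at 25.6, 21.7, 33.5 and 22.4 TPM with vector and 3.54, 3.79, 2.42 and 1.46 TPM with Aoah (log2 change -2.85, SE 0.34, adjusted p = 0.000151). Ier3, an immediate early survival gene, stood at 17.6, 13.9, 30.2 and 11.5 TPM with vector and 2.9, 2.64, 0.41 and 0.71 TPM with Aoah (log2 change -2.91, adjusted p = 0.000352). All vector tumors exceeded all Aoah tumors for both. The NF-kB cofactor Bcl3 fell from 16.8 to 28.8 TPM with vector to 4.31 to 9.51 TPM with Aoah, and Junb, a component of the AP-1 factor, fell by 1.94 on the log2 scale. Lifr, the receptor for leukemia inhibitory factor, was the 1 gene of the list that rose (log2 change 1.76, adjusted p = 0.00781).

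Acute phase proteins proper fell in 8 of 24 cases and rose in none, and the median was -0.80. A2m, an inhibitor of proteases and an acute phase protein of rodents, stood at 298, 356, 362 and 206 TPM with vector and 18.4, 11.6, 9.76 and 5.37 TPM with Aoah (log2 change -4.72, SE 0.84, adjusted p = 0.00419). Serpina3n, an inhibitor of serine proteases, stood at 472, 608, 671 and 248 TPM with vector and 50.2, 114, 27.0 and 26.8 TPM with Aoah (log2 change -3.34, adjusted p = 0.00147). Aoah 2 was the highest Aoah tumor for Serpina3n and still below every vector tumor. Itih3 fell by 1.62 on the log2 scale, and Lrg1 stood at 361, 381, 589 and 249.6 TPM with vector and 96.4, 222, 63.9 and 35.5 TPM with Aoah (log2 change -2.16, adjusted p = 0.0176; adjusted p up to 0.0615 without any 1 of Aoah 3, Aoah 4 or vector 3). The summed level of the 24 genes overlapped, at 9957 to 27670 TPM in Aoah tumors and 17640 to 27160 TPM in vector tumors. Of the 8 falls 3 were called with each tumor left out in turn and 1 gene fell without vector 1 and vector 3, where A2m had a change of -4.58 and an adjusted p of 0.0675. In coagulation and fibrinolysis 7 of 22 genes fell and 1 rose, and 12 lay entirely below the vector tumors, against 9.1% of all genes. The list summed to 5876 to 12480 TPM in Aoah tumors and 16160 to 19270 TPM in vector tumors. The 3 chains of fibrinogen, the clot precursor, fell. Fga stood at 4599, 4775, 5098 and 4474 TPM with vector and 1644, 2840.1, 991 and 1167 TPM with Aoah (log2 change -1.63, SE 0.36, adjusted p = 0.00835) and Fgb at 2144, 2259, 2495 and 2022 TPM with vector and 804, 1406, 541 and 645 TPM with Aoah (log2 change -1.49, adjusted p = 0.00873), without overlap for either. Fgg fell from 4914 to 6356 TPM with vector to 1911 to 3680.1 TPM with Aoah (log2 change -1.17, adjusted p = 0.0121; adjusted p = 0.0505 without Aoah 4). Without vector 1 and vector 3 no gene of this list passed, although the change of Fga was then -1.60 (adjusted p = 0.103).

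To show what the 250 bases before the start of these genes hold, the promoter windows of Reg3b, Reg3g, Socs3 and Fga are given from RefSeq (GRCm38.p6), 5′ to 3′ on the gene's strand. Reg3b lies at chr6:78370635-78370884 (plus strand), Reg3g at chr6:78468875-78469124 (minus), Socs3 at chr11:117969367-117969616 (minus) and Fga at chr3:83025903-83026152 (plus). Capitals mark the motif TTCNNNGAA, the core of STAT binding sites, which reads the same on both strands.
Reg3b: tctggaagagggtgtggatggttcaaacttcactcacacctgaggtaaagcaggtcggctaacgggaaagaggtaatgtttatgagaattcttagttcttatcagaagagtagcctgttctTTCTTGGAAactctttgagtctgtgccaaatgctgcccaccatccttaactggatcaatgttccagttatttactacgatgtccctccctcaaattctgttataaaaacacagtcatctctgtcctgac
Reg3g: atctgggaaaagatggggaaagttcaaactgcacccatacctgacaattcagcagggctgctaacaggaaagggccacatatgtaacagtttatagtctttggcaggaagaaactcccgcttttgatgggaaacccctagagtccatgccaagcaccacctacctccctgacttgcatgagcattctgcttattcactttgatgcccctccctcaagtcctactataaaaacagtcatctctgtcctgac
Socs3: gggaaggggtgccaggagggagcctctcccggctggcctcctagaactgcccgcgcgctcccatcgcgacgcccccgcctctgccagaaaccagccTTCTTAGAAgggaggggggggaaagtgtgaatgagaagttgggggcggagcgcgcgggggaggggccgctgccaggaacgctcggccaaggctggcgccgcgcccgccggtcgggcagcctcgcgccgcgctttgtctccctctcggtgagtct
Fga: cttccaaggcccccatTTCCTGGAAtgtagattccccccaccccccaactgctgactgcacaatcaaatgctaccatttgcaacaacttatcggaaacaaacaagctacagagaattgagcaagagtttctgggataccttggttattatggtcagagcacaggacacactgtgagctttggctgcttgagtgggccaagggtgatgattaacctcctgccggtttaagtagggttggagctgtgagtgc
The motif begins 129 bases before the start in Reg3b, 154 in Socs3 and 234 in Fga, and no match is in the Reg3g window. It is in 7.02% of all 32851 windows, in 7.47% of 9784 tested genes with a window, in 7.27% of 784 rises and in 8.01% of 1461 falls. Among called falls with a window it is in 3 of 6 coagulation genes (Fga, Fgb and Pros1), 1 of 6 acute phase genes and 1 of 8 genes of the interleukin-6 list. A match is a description of these letters and not a binding site.

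Recognition of lipopolysaccharide is the process AOAH acts on. Of 19 tested genes for this recognition and for NF-kB signaling 8 fell and none rose, with a median of -0.54, while 4 lay entirely above and 4 entirely below the vector tumors, against 11.8% and 9.1% of all genes. With each tumor centred on its median 4 of them rose and 8 fell. Cd14, the co-receptor that hands lipopolysaccharide to Toll-like receptor complexes, stood at 40.6, 40.3, 38.9 and 25.1 TPM with vector and 6.94, 12.0, 4.52 and 4.74 TPM with Aoah (log2 change -2.28, SE 0.30, adjusted p = 0.000352). Lbp, the plasma protein that delivers it to Cd14, stood at 77.4, 107, 129 and 66.6 TPM with vector and 24.5, 44.1, 13.7 and 15.6 TPM with Aoah (log2 change -2.01, adjusted p = 0.0067). Neither gene overlapped between the groups. The adaptor genes Tirap (log2 change -1.20, adjusted p = 0.022; adjusted p up to 0.0776 without any 1 of Aoah 3, Aoah 4, vector 3 or vector 4) and Ticam1 (log2 change -1.05, adjusted p = 0.0281; adjusted p up to 0.0947 without any 1 of Aoah 1, Aoah 3, Aoah 4, vector 1, vector 3 or vector 4) fell by less. Of the 8 falls 2 were called with each tumor left out in turn, and 1 gene fell without vector 1 and vector 3, which was Cd14 (adjusted p = 0.0169). Iron handling, which hepatocytes alter in inflammation, had 7 falls and 2 rises among 24 genes, against 14.3% and 7.93% of all genes. Its median of -0.24 equalled that of all genes. With tumors centred on their median it was 0.07, against 0.07 for all genes. Scara5, a receptor for ferritin, stood at 12.6, 21.4, 23.6 and 13.6 TPM with vector and 0.8, 2.12, 1.08 and 0.29 TPM with Aoah (log2 change -3.21, SE 0.37, adjusted p = 0.000142). Fth1, the ferritin heavy chain, stood at 5699, 4946, 5518 and 4677 TPM with vector and 2273, 2827, 1637 and 2222 TPM with Aoah (log2 change -1.24, adjusted p = 0.000668), and the metal importer Slc39a14 fell from 50.5 to 76.8 TPM with vector to 11.4 to 32.9 TPM with Aoah. Hamp2, a paralog of the iron hormone hepcidin, rose (log2 change 2.06, adjusted p = 0.00606). The summed list was 5354 to 8752 TPM in Aoah tumors and 8790 to 10440 TPM in vector tumors, without overlap. 

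**Figure D4:**
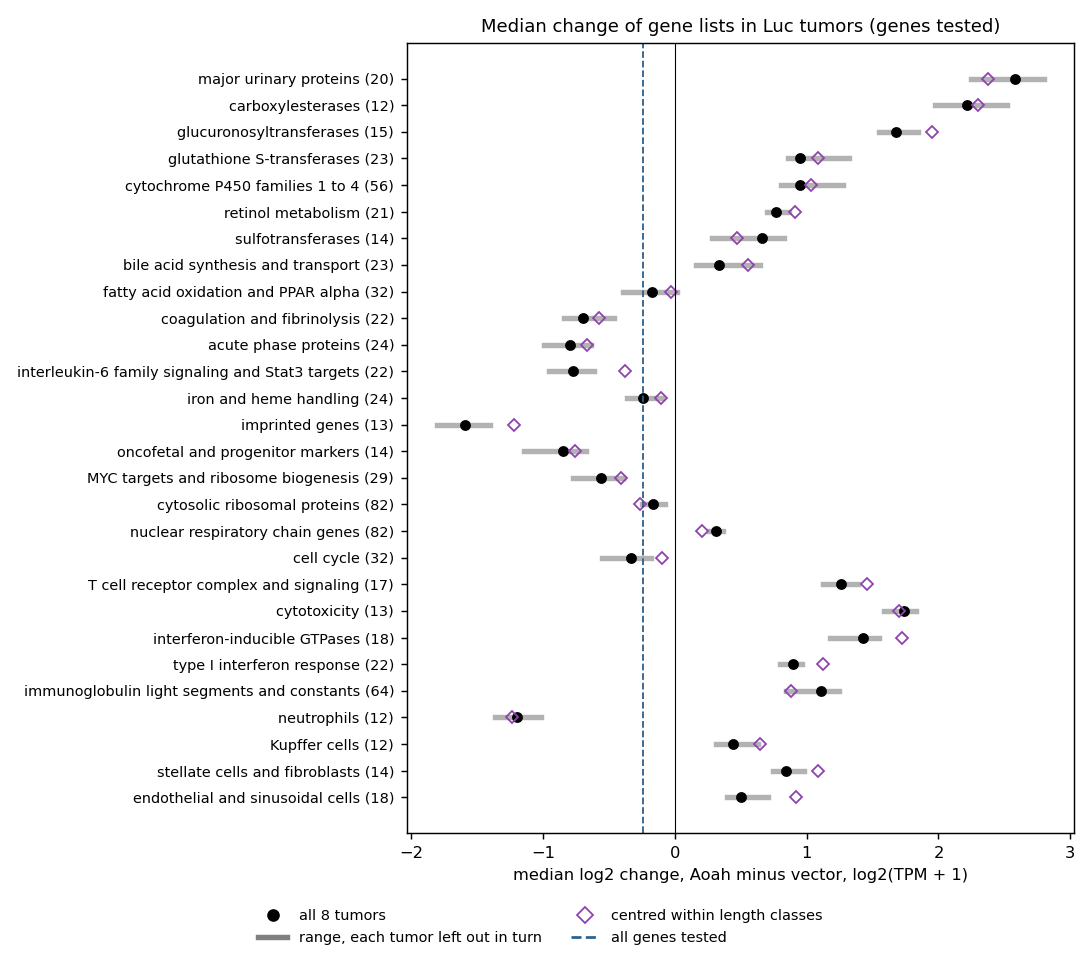
Median log2 change (Aoah minus vector, horizontal axis) of the tested genes of 28 lists (vertical axis, number tested in brackets), with the range over fits that leave out 1 tumor as a grey bar and the median within length classes as an open diamond. The dashed line is the median of all genes in the fit as reported, -0.24. Within length classes that median was -0.003, so the line is no reference for the diamonds. Major urinary proteins lay at 2.58 and imprinted genes at -1.59.

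Several markers of fetal and malignant hepatocytes fell. Of 14 oncofetal and progenitor genes tested (20 in the table) 6 fell and none rose, and 4 of the falls were called with each tumor left out in turn. Gpc3, a glypican used as a marker of hepatocellular carcinoma, stood at 353, 235, 358 and 237 TPM with vector and 36.5, 45.2, 8.91 and 7.95 TPM with Aoah (log2 change -3.88, SE 0.55, adjusted p = 0.00062). Sox9, a factor of progenitor and bile duct cells, stood at 3.24, 7.06, 9.85 and 6.09 TPM with vector and 0.17, 1.0, 0.18 and 0.31 TPM with Aoah (log2 change -2.38, adjusted p = 0.000182). In both genes all Aoah tumors were below all vector tumors; for Gpc3, Aoah 3 and Aoah 4 were lower than Aoah 1 and Aoah 2. Imprinted genes, many of which are silenced in liver after birth, fell in 10 of 13 tested cases (18 in the table) with a median of -1.59. Meg3, a long noncoding RNA, stood at 66.4, 39.0, 67.2 and 50.5 TPM with vector and 11.1, 12.1, 3.75 and 5.52 TPM with Aoah (log2 change -2.73, adjusted p = 0.00152). H19, also noncoding and the most abundant of the list, stood at 8880.0, 7286, 17135 and 11821 TPM with vector and 3616, 4903, 978 and 2267 TPM with Aoah (log2 change -2.10, SE 0.49, adjusted p = 0.0124). Aoah 3 was the lowest tumor for both, and neither gene overlapped. Peg3 fell by 2.14 and the cell cycle inhibitor Cdkn1c by 1.93 on the log2 scale. Of the 10 imprinted falls 5 were called with each tumor left out in turn, 2 genes fell without vector 1 and vector 3, and the median within length classes was -1.22. Outside these lists, Csrp3, a muscle LIM protein, stood at 20.8, 20.6, 24.3 and 21.6 TPM with Aoah and 1.35, 1.22, 1.2 and 1.74 TPM with vector (log2 change 3.27, adjusted p = 2.5e-05), and Gucy2c, the intestinal receptor for guanylin, fell from 4.62 to 9.57 TPM with vector to 0.3 to 0.57 TPM with Aoah. The homeobox gene Hesx1 fell to 0.45 to 1.38 TPM from 6.52 to 11.0 TPM. 

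MYC drives ribosome production, and 11 of 29 tested MYC target and ribosome biogenesis genes fell while none rose. Only Tfrc, the transferrin receptor that the iron list also holds, was called with each tumor left out in turn and without vector 1 and vector 3; it stood at 227, 264, 243 and 341 TPM with vector and 122, 135, 95.7 and 100.3 TPM with Aoah (log2 change -1.24, adjusted p = 0.00667). Ncl, nucleolin, stood at 650.0, 332, 830.4 and 976 TPM with vector and 259, 486, 142 and 194 TPM with Aoah, so vector 2 lay below Aoah 2 (log2 change -1.41, adjusted p = 0.0251; adjusted p up to 0.0829 without any 1 of Aoah 1, Aoah 3, Aoah 4, vector 1, vector 3 or vector 4). Of 82 cytosolic ribosomal protein genes 14 fell, a share near the 14.3% of all genes, and none rose. Of the 82 genes 31 lay entirely below the vector tumors, against 9.1% of all genes. Their median was -0.17, against -0.24 for all genes. With each tumor centred on its median it was 0.15, against 0.07 for all genes, and 3 fell. Within length classes 22 fell. Rps4x stood at 2105, 2305, 2398 and 2352 TPM with vector and 1324, 1512, 935 and 1030.0 TPM with Aoah (log2 change -0.96, adjusted p = 0.00526). Their summed share nevertheless overlapped, at 24.1%, 19.4%, 27.3% and 21.9% of TPM with Aoah and 25.0%, 31.4%, 21.1% and 22.8% with vector. Nuclear genes of the respiratory chain, whose products work in mitochondrial ATP production, had 7 rises and no fall among 82, a share near the 7.93% of all genes that rose. Of the 82 genes 27 lay entirely above the vector tumors, against 11.8% of all genes. With tumors centred within length classes 6 rose and 4 fell. Ndufb3, a subunit of complex I, stood at 182, 177, 211 and 222 TPM with Aoah and 124, 126, 102 and 131 TPM with vector (log2 change 0.71, adjusted p = 0.00902). Cox8b, a heart and muscle form of a complex IV subunit, stood at 4.06 to 14.2 TPM in Aoah tumors against 0 to 1.92 TPM in vector tumors (log2 change 2.36, adjusted p = 0.00124). Their share of TPM was 4.74% ± 0.484 with Aoah and 3.71% ± 0.373 with vector (SD, n = 4 each; exact two-sided permutation p = 0.0286, adjusted 0.0514). Of the 13 genes in the list of mitochondrially encoded genes none passed in limma and none had an unadjusted p under 0.05. The mitochondrial gene mt-Rnr1, which is not in that list, rose (log2 change 1.08, adjusted p = 0.0466), but its groups overlapped. Its call was lost when Aoah 3, Aoah 4 or any single vector tumor was left out (adjusted p up to 0.149). Among 32 cell cycle genes 1 fell, Cdk6 (log2 change -1.17, adjusted p = 0.0214; adjusted p up to 0.0758 without any 1 of Aoah 1, Aoah 3, Aoah 4, vector 3 or vector 4). 

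T cell genes rose. Of 17 tested genes of the T cell receptor complex and its signaling (19 in the table) 13 rose and none fell, with a median of 1.26. Over all genes 7.93% rose and 14.3% fell. Of the 13 rises 11 were called with each tumor left out in turn, and 9 genes rose without vector 1 and vector 3. Trbc2, a constant segment of the receptor beta chain, stood at 20.3, 20.02, 24.0 and 35.8 TPM with Aoah and 6.41, 2.61, 3.75 and 3.69 TPM with vector (log2 change 2.36, SE 0.31, adjusted p = 0.000339). Cd3d, a signaling chain of the receptor, stood at 5.33, 7.02, 12.4 and 9.31 TPM with Aoah and 1.37, 0.66, 0.63 and 0.69 TPM with vector (log2 change 2.34, adjusted p = 0.000661). All Aoah tumors lay above all vector tumors for both. Themis, needed for thymocyte selection, and the adhesion receptor Cd2 rose by 1.26 and 2.02 on the log2 scale. The list summed to 89.4 to 148.2 TPM in Aoah tumors and 15.3 to 32.4 TPM in vector tumors. Of 13 tested cytotoxicity genes (18 in the table) 11 rose and 13 lay entirely above the vector tumors, against 7.93% and 11.8% of all genes. Of these rises 10 were called with each tumor left out in turn, and 8 genes rose without vector 1 and vector 3. Themis (0.11 to 0.35 TPM) and Klrc1 (0.15 to 0.84 TPM) stayed under 1 TPM in all vector tumors. Counts in both lists therefore describe only the members that passed the filter. Gzma, the protease granzyme A of cytotoxic granules, stood at 25.9, 20.7, 28.6 and 45.1 TPM with Aoah and 7.09, 1.8, 4.46 and 2.82 TPM with vector (log2 change 2.68, SE 0.45, adjusted p = 0.00171). Klrd1, a lectin receptor subunit of natural killer and activated CD8 T cells, stood at 7.53, 6.65, 10.0 and 11.8 TPM with Aoah and 1.48, 0.33, 0.99 and 1.54 TPM with vector (log2 change 2.28, adjusted p = 0.00152), and its partner Klrc1 rose by 1.87 on the log2 scale. The groups were again separate for these 3 genes. Serpinb9, the granzyme B inhibitor, rose from 1.24 to 2.1 TPM with vector to 5.65 to 8.24 TPM with Aoah.

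The coreceptor genes that mark CD8 T cells were low. Cd8a stood at 1.63, 2.83, 1.78 and 2.66 TPM with Aoah and 1.01, 0.21, 0.46 and 0.8 TPM with vector (log2 change 1.00, adjusted p = 0.0421; adjusted p up to 0.113 without any 1 of the 8 tumors) and Cd8b1 at 1.94, 3.14, 1.13 and 3.57 TPM with Aoah and 0.94, 0.15, 0.79 and 0.72 TPM with vector (log2 change 1.03, adjusted p = 0.0305; adjusted p up to 0.101 without any 1 of Aoah 1, Aoah 4, vector 1, vector 3 or vector 4). Both were higher in every Aoah tumor than in any vector tumor, with vector 1 the highest vector tumor for each. Cxcr6, a homing receptor of liver-resident T cells, stood at 6.83, 4.9, 9.09 and 8.54 TPM with Aoah and 0.95, 0.46, 0.53 and 1.43 TPM with vector (log2 change 2.18, adjusted p = 0.001). Of 13 tested checkpoint and exhaustion genes 1 rose, Cd160 (log2 change 1.12, adjusted p = 0.00752), near the background share. For natural killer cells 3 of 13 genes passed the filter, of which Xcl1 (log2 change 1.52, adjusted p = 0.0242; adjusted p up to 0.0868 without any 1 of Aoah 3, Aoah 4, vector 1 or vector 3) and Tyrobp (log2 change 1.07, adjusted p = 0.0208; adjusted p up to 0.0631 without any 1 of Aoah 1, Aoah 3, Aoah 4, vector 3 or vector 4) rose. Of 101 variable, joining and constant segments of the alpha and beta chains 14 passed the filter and 33 were at 0 in all 8 tumors. All 14 had positive changes and 11 rose, but a segment near the minimum passed the filter only where it was high, so that count is no support; Trbv5 stood at 1.53, 1.63, 1.41 and 2.4 TPM with Aoah and 0.2, 0.21, 0 and 0 TPM with vector.

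The deposited receptor repertoire lists, per tumor, clonotypes (distinct rearrangements) and clones (their copies), which are not scaled to depth. Beta chain clonotypes numbered 84, 52, 67 and 70 with Aoah and 10, 4, 8 and 4 with vector, or 68.2 ± 13.1 against 6.5 ± 3.0 (SD, n = 4 each). The lowest Aoah tumor thus held 52 and the highest vector tumor 10, and the two-sided exact permutation p was 0.0286, the smallest that the 70 splits allow, or 0.0952 adjusted over 20 measures. Beta chain clones numbered 103.8 ± 25.3 against 7.75 ± 3.86, with the same p, and the entropy of the beta chain, a measure of diversity that grows with the number of clonotypes, was 5.82 ± 0.371 against 2.52 ± 0.665. Clonality, which falls as clones become even, did not separate the groups (0.0422 ± 0.021 against 0.0216 ± 0.0162, exact p = 0.229). Alpha chain clonotypes were fewer, 17, 16, 5 and 12 against 6, 1, 7 and 2, and overlapped (exact p = 0.0857). Whether the libraries differed in depth cannot be told from these files.

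**Figure D5:**
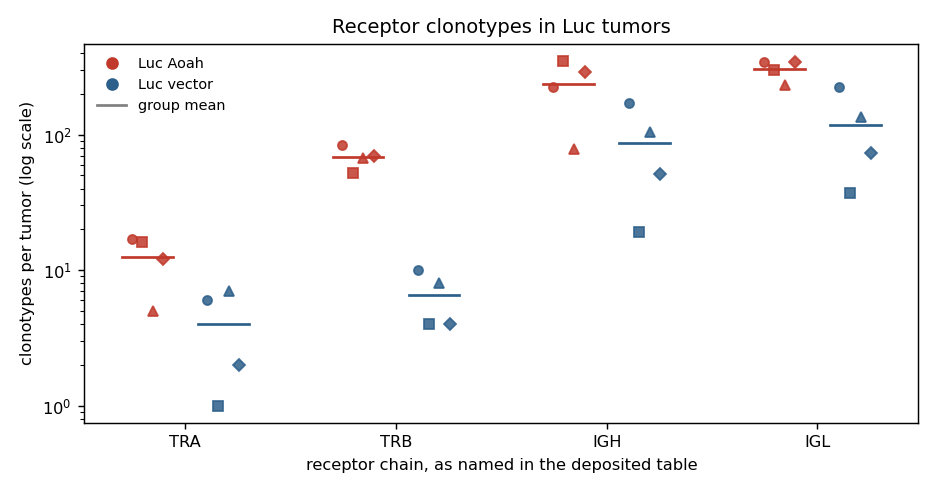
Clonotypes per tumor (log axis) of the receptor chains TRA, TRB, IGH and IGL as named in the deposited table, for Luc Aoah (red) and Luc vector (blue) tumors, with 1 shape per tumor number and the group mean as a line. TRB separated the groups (52 to 84 against 4 to 10), as did IGL, while TRA and IGH overlapped.

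Antibody genes rose less uniformly. The column named IGL held 341, 302, 234 and 343 clonotypes with Aoah and 226, 37, 135 and 73 with vector (exact p = 0.0286, adjusted 0.0952); what this column covers is not stated. Heavy chain clonotypes numbered 225, 348, 78 and 288 against 172, 19, 105 and 51 and overlapped (exact p = 0.0857). In both, vector 1 was the highest vector tumor and Aoah 3 the lowest Aoah tumor. The fraction of heavy chains that were IgA was 0.804, 0.872, 0.844 and 0.827 with Aoah and 0.834, 0.478, 0.907 and 0.733 with vector, a difference within the spread (exact p = 0.4). Immunoglobulin transcripts took 0.0814% ± 0.0323 of TPM with Aoah and 0.0269% ± 0.0214 with vector (SD, n = 4 each; exact p = 0.0286, adjusted 0.0514). Of 64 tested light chain segments (106 in the table) 16 rose, against 7.93% of all genes. With each tumor left out in turn 3 of these were called. Of 29 heavy chain segments 3 rose, against 7.93% of all genes, and none was called with each tumor left out. A segment near the minimum of 1 TPM passed the filter only where it was high, so neither count is support. Iglc2, a constant segment of the lambda chain, stood at 7.86, 3.38, 3.87 and 9.27 TPM with Aoah and 1.41, 0.14, 0.3 and 0.55 TPM with vector (log2 change 2.11, adjusted p = 0.00066). Jchain, which joins secreted IgA and IgM, stood at 52.97, 47.3, 67.9 and 113 TPM with Aoah and 26.8, 2.89, 10.4 and 6.62 TPM with vector (log2 change 2.77, adjusted p = 0.0367; adjusted p up to 0.102 without any 1 of Aoah 1, Aoah 3, Aoah 4, vector 2, vector 3 or vector 4), higher in every Aoah tumor. Of 17 B cell genes 3 passed the filter and Cd79b, a chain of the B cell receptor, rose (log2 change 0.74, adjusted p = 0.0125). 

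Interferon-inducible genes were higher with Aoah but their calls were less stable. Of 18 GTPases induced by interferon gamma, which attack vacuoles of intracellular microbes, all had positive changes. Among them 16 lay entirely above the vector tumors and 11 rose, against 11.8% and 7.93% of all genes. With each tumor left out in turn 4 of the rises were called, and no gene passed without vector 1 and vector 3. Ifi47 stood at 51.6, 48.4, 63.4 and 89.0 TPM with Aoah and 21.3, 23.8, 14.7 and 18.6 TPM with vector (log2 change 1.62, adjusted p = 0.00589). Tgtp1 rose by 2.01 and Gbp10 by 2.33 on the log2 scale. Of 22 tested type I interferon genes 6 rose, none of them with each tumor left out in turn. Entirely above the vector tumors lay 14, against 11.8% of all genes. Isg15, a ubiquitin-like modifier, stood at 19.4, 13.8, 19.9 and 17.9 TPM with Aoah and 3.47, 4.26, 3.16 and 3.65 TPM with vector (log2 change 2.01, adjusted p = 0.0352; adjusted p up to 0.098 without any 1 of Aoah 1, Aoah 3, Aoah 4, vector 1, vector 3 or vector 4), and Zbp1, a sensor of nucleic acid, at 10.9 to 15.5 TPM in Aoah tumors against 2.26 to 3.34 TPM in vector tumors (adjusted p up to 0.0655 without either Aoah 4 or vector 4). Both were separated between the groups. In class I presentation 5 of 21 rose, 4 of them with each tumor left out in turn. Psmb9, a subunit of the immunoproteasome, stood at 29.3, 39.2, 42.02 and 56.9 TPM with Aoah and 13.7, 8.38, 7.74 and 9.01 TPM with vector (log2 change 1.99, SE 0.32, adjusted p = 0.00124), and Psmb8 rose by 1.59 on the log2 scale. In class II 2 of 9 rose, against 7.93% of all genes. H2-Aa stood at 135, 189, 154 and 245 TPM with Aoah and 67.9, 21.6, 50.2 and 49.1 TPM with vector, with vector 2 the lowest (log2 change 1.99, adjusted p = 0.013; adjusted p = 0.0515 without Aoah 4).

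Chemokines and myeloid genes went in both directions. Of 19 tested chemokine genes 6 rose and 2 fell, against 7.93% and 14.3% of all genes. Ccl5, which attracts T cells, stood at 34.0, 37.0, 29.4 and 66.8 TPM with Aoah and 17.4, 5.98, 11.5 and 11.6 TPM with vector (log2 change 1.77, adjusted p = 0.00892), and Cxcl9, an interferon gamma target with the same role, rose from 2.51 to 8.19 TPM with vector to 20.2 to 46.9 TPM with Aoah (adjusted p = 0.0597 without Aoah 4). Cxcl1, which attracts neutrophils, stood at 149.6, 119.6, 118 and 58.3 TPM with vector and 36.4, 26.4, 33.9 and 22.3 TPM with Aoah (log2 change -1.82, adjusted p = 0.00375). No tumor overlapped for these genes. Of 12 tested neutrophil genes (16 in the table) 7 fell, against 14.3% of all genes, and all 12 had negative changes. The summed level of the list was 53.8 to 103.6 TPM in Aoah tumors against 147.4 to 411 TPM in vector tumors. S100a8, a calcium-binding alarmin, stood at 75.0, 189, 97.5 and 61.0 TPM with vector and 47.6, 25.9, 35.0 and 22.9 TPM with Aoah (log2 change -1.57, adjusted p = 0.0196; adjusted p up to 0.0705 without either Aoah 4 or vector 3), with vector 2 the highest. Retnlg fell from 1.87 to 10.9 TPM with vector to 0.61 to 1.45 TPM with Aoah. Of these 7 falls 2 were called with each tumor left out in turn, none passed without vector 1 and vector 3, and with tumors centred on their median 2 fell.

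Monocyte genes split, with 2 rises and 3 falls among 10 tested, against 7.93% and 14.3% of all genes. Chil3, a chitinase-like protein, fell from 12.1 to 38.2 TPM with vector to 1.2 to 5.88 TPM with Aoah. Fibronectin, Fn1, which hepatocytes also make, fell as well (log2 change -1.86, adjusted p = 0.00639), while Ly6c2 rose (log2 change 1.37, adjusted p = 0.00752). Of 12 Kupffer cell genes 3 rose, against 7.93% of all genes, and 1 of them was called with each tumor left out in turn. Folr2, a folate receptor of resident macrophages, stood at 13.3, 10.5, 7.92 and 11.6 TPM with Aoah and 1.75, 2.33, 6.06 and 2.04 TPM with vector (log2 change 1.64, adjusted p = 0.0127). The Kupffer cell lectin Clec4f stood at 48.6, 38.1, 35.2 and 54.7 TPM with Aoah and 4.82, 8.23, 25.9 and 8.97 TPM with vector, so vector 3 lay close to the Aoah tumors (log2 change 2.02, adjusted p = 0.046; adjusted p up to 0.115 without any 1 of Aoah 1, Aoah 2, Aoah 3, Aoah 4, vector 1, vector 2 or vector 4). Lyz2, lysozyme of macrophages, stood at 266, 240.2, 324 and 312 TPM with Aoah and 84.0, 71.8, 60.3 and 94.4 TPM with vector (log2 change 1.88, adjusted p = 0.00127) and was the 1 rise among 19 tested pan-macrophage genes. Of 6 dendritic cell genes that passed the filter none rose or fell under limma, nor did either of 2 genes of mast cells, basophils and eosinophils. In each of these lists 1 gene had an unadjusted p under 0.05, which was Bst2 (log2 change 0.57, adjusted p = 0.119) in the first and Ear2 (log2 change 0.57, adjusted p = 0.0879) in the second.

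Stromal genes rose in part. Of 14 tested stellate cell and fibroblast genes 8 rose and none fell, against 7.93% and 14.3% of all genes (12 rose within length classes). With each tumor left out in turn 3 of the rises were called, and 1 gene rose without vector 1 and vector 3. Tagln, a protein of contractile cells, stood at 28.9, 22.9, 32.5 and 26.0 TPM with Aoah and 8.88, 3.17, 7.96 and 8.72 TPM with vector (log2 change 1.87, SE 0.31, adjusted p = 0.0015). Dcn, the matrix proteoglycan decorin, stood at 49.7, 43.0, 45.8 and 83.8 TPM with Aoah and 10.6, 28.8, 26.0 and 15.2 TPM with vector (log2 change 1.47, adjusted p = 0.0107). The groups were separate for both, with Aoah 4 the highest for Dcn. In the extracellular matrix list 6 of 27 rose and 4 fell, and the falls were near the 14.3% of all genes that fell. Within length classes 11 rose and 3 fell. The fibrillar collagen gene Col3a1 rose from 5.72 to 24.0 TPM with vector to 36.2 to 60.0 TPM with Aoah and periostin, Postn, by 1.24 on the log2 scale; Col18a1, a basement membrane collagen, fell (log2 change -1.67, adjusted p = 0.0223; adjusted p up to 0.0764 without any 1 of Aoah 3, Aoah 4, vector 3 or vector 4). Of 18 endothelial genes 6 rose, against 7.93% of all genes, 2 of them with each tumor left out in turn. Among the rises were Bmp2 (log2 change 1.07, adjusted p = 0.00447) and the sinusoidal marker Emcn (log2 change 1.15, adjusted p = 0.00963). Within length classes 13 rose, and none did without vector 1 and vector 3. Cell types from outside the liver were checked in the same way. Hemoglobin and other erythroid genes summed to 648 to 1051 TPM in Aoah tumors and 355 to 861 TPM in vector tumors, and 1 of 7 fell, Slc4a1 (adjusted p up to 0.131 without any 1 of Aoah 1, Aoah 3, Aoah 4, vector 3 or vector 4). Intestinal genes had no call among 5 under limma (2 at an unadjusted p under 0.05) and muscle genes none among 3 (0 at an unadjusted p under 0.05). Adipocyte genes summed to 114.4 to 153.2 TPM in Aoah tumors and 51.2 to 98.8 TPM in vector tumors, without overlap. Fabp4 rose among 5 tested (log2 change 0.75, adjusted p = 0.0323). Its adjusted p was up to 0.0834 without any 1 of Aoah 1, Aoah 3, Aoah 4, vector 1, vector 2 or vector 4. Among 3 tested platelet genes Ppbp fell (log2 change -1.58, adjusted p = 0.0144, or 0.0548 without vector 3). In addition, the lung surfactant gene Sftpc, the 1 of 7 lung and mesothelial genes that passed the filter, ranged over 1.02 to 3.4 TPM in Aoah tumors against 0.13 to 0.68 TPM in vector tumors (log2 change 1.09, adjusted p = 0.00954). The part of admixed cells in the calls of other genes was not tested. 

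The same contrast in tumors with the antigen plasmid used other tumors for both arms, although all 14 tumors share the estimate of spread. In LucOS 101 of the 13466 genes rose with Aoah (0.75%) and 29 fell (0.215%). Of the 1068 genes that rose in Luc tumors 958 (89.7%) had a positive change in LucOS and 94 (8.80%) rose there, with a median of 0.62. Of the 1920 that fell 1560 (81.2%) had a negative change in LucOS and 26 (1.35%) fell there, with a median of -0.23. Over all genes 47.4% had a positive change in LucOS and the median was -0.02. The difference between the 2 responses passed for 1 gene of 13466 (0.00743%), against 1378 at an unadjusted p under 0.05. It was Mup13, which stood at 14.4, 42.6, 53.5 and 27.9 TPM with Aoah and 1.4, 0, 0.14 and 1.71 TPM with vector in the Luc tumors (log2 change 4.28, SE 0.44, adjusted p = 5.82e-05) and had a change of -0.76 in LucOS. The difference was -5.04 on the log2 scale (adjusted p = 0.0315), and no gene passed when any of Aoah 2, Aoah 3, Aoah 4, vector 1, vector 2 and vector 3 was left out, with tumors centred on their median or with a pseudocount of 0.1. For Mup3 the LucOS change was 1.31 and for Reg3b -5.20, and their differences did not pass (adjusted p = 0.35 and 0.454).

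In the authors' deposited table for the same 8 tumors 2978 identifiers were higher and 3068 lower with Aoah at an adjusted p under 0.05. Of 12705 genes with a p-value in both, the limma fit called 2860 and 5118 were called in the authors' deposited table. Of these, 2755 were called in both with the same sign, which is 96.3% of the limma calls and 53.8% of those in the authors' deposited table, and none had opposite signs. The authors' deposited table gives a log2 fold change of 5.01 for Aoah.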

How the data were processed

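Polyadenylated RNA was sequenced from 14 liver tumors, of which the 8 Luc tumors are compared here; groups were taken from the labels. The deposited expression table holds log2(TPM + 1) per gene symbol, made with RSEM on mm39 per the submitters' processing notes; the unit was read from the values, whose back-transformed sums were nearly equal in all tumors. The aligner and the annotation are not given in the sources used here. Both directional and non-directional library kits are named in the labels, and sequencing depth is unknown, so no counting interval can be given. The receptor repertoire table, which the authors deposited, holds clonotype and clone numbers, entropy and clonality scores and isotype fractions without a stated scaling. The authors' deposited comparison table gives mean normalized signal, log2 fold changes, a test score and p-values, from DESeq2 per the submitters' processing notes.

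The deposited log2 values were fitted in R 4.3.3 with limma 3.58.1 as 4 group means over all 14 tumors, with the trend and robust options, on 13466 genes at 1 TPM or more in at least 3 tumors. Fold changes are on the log2(TPM + 1) scale, which understates the change of low genes. P-values were adjusted by Benjamini-Hochberg over all genes and called under 0.05; 20 repertoire measures and 9 shares of TPM had exact two-sided permutation tests, adjusted within each family. The scripts were tested on simulated data with 200 changed genes. Named genes were Aoah, the 12 widest gaps and the 8 largest gains or losses of mean TPM in each direction, and up to 4 called members per list with the smallest p, any called member against its list's direction, or, with none called, the member with the smallest p; receptor segments and predicted genes did not enter the gaps, gains and losses. Acinar markers at or near 0 were named after their values were seen. The comparison, the lists and the tests were chosen with earlier results of these data known. Alternatives covered the pseudocount (0.1), 2 filters, 3 scalings, the variance model, the Luc tumors alone, the replicate number and leaving out each tumor. Leaving out vector 1 and vector 3 and centring within classes of transcript length (longest GENCODE transcript) were chosen after seeing the data. Promoter windows are from RefSeq, build GRCm38.p6. The authors' comparison within LucOS tumors was not used here. The values of 1 gene are not reported here.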

Additional observations from a re-analysis of the deposited data

Results flagged for a closer look

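In 30 of 594 groups of 4 tumors examined, 1 tumor stood apart from the other 3, its gap to the nearest taking up most of the group's range; chance gives about 1 in 20. Levels alone are given here, whatever a gene's test result. With Aoah, tumor 3 was the lowest for Nr0b2 (2.03 TPM), Igfbp1 (51.8 TPM), Igfbp2 (157 TPM), Slc1a2 (12.9 TPM), Cmpk2 (2.03 TPM) and Cd79b (1.23 TPM), and the highest for the share of small noncoding RNA (3.7% of TPM). Tumor 4 was the highest for Ndufs5 (339 TPM), mt-Nd3 (4084 TPM), Cd160 (3.73 TPM), Tgtp1 (116 TPM) and Cxcr4 (9.35 TPM), and tumor 2 for Cdk6 (4.6 TPM); tumor 1 was the lowest for Trbv13-2 (2.09 TPM).

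With vector, tumor 1 stood apart for Cyp2f2 (1.19 TPM), Cd3d (1.37 TPM), Ighv1-64 (2.77 TPM) and the IgM fraction of heavy chains (0.0127). Tumor 2 stood apart for Lect2 (238 TPM), Glul (79.8 TPM), Tnfrsf10b (1.74 TPM), Tgtp2 (3.88 TPM), Cxcl9 (2.51 TPM), Tagln (3.17 TPM) and Thy1 (1.92 TPM). Tumor 3 did for Akr1c19 (8.89 TPM), Rpl28 (2622 TPM), Timd4 (1.22 TPM) and Clec4g (6.24 TPM), and tumor 4 for Cd14 (25.1 TPM).

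The Aoah effect on Mup13 differed between the 2 tumor models by limma's interaction test (adjusted p = 0.0315); the change in LucOS minus that in Luc was -5.04 on the log2 scale, with 3 tumors a group in LucOS.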

How the results depend on the processing

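The 1068 rises and 1920 falls became 1812 rises with tumors centred within classes of transcript length, 2145 with median-centred and 1685 with quantile-normalized values, and 704 rises and 1230 falls at a minimum of 5 TPM. Without a filter 575 genes fell, and without vector 1 and vector 3 there were 265 rises and 96 falls. Leaving out 1 Luc tumor at a time gave 531 to 1219 rises and 336 to 4050 falls. The replicate number as a block gave 367 rises and 109 falls. Deviations of same-numbered tumors correlated at 0.001, -0.55, -0.394 and -0.113, so same-numbered tumors did not deviate together and the block was not used elsewhere. Whether the numbers follow a batch was not tested. The difference between LucOS and Luc tumors passed for 0 genes within length classes, with median-centred values, with a pseudocount of 0.1, with TPM rescaled without mitochondrial and small RNA, and without vector 1 and vector 3, for 2 genes without a filter, and for 0 to 1 with 1 tumor left out. The cause of these shifts was not tested. No repertoire measure or share passed after adjustment under any alternative. Over single genes, list medians and other single values no called value reversed under the alternatives run, 6061 values kept their side, 955 lost their call, 9 gained one and 91 untested values moved. In total 489 rises and 292 falls were called under all 8 omissions of a tumor and under the 3 scalings, the lower pseudocount, the Luc tumors alone and the plain variance model. Depth is unknown, so genes near 1 TPM, receptor segments and clonotype numbers cannot be given a counting error, and 4 against 4 tumors cannot give an exact p below 0.0286.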

Other observations

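Plasma proteins of innate immunity did not move as 1 group. Of 21 complement genes of hepatocytes 5 rose and 2 fell, against 7.93% and 14.3% of all genes. C8g, a chain of the membrane attack complex, stood at 110.4 to 180.3 TPM in Aoah tumors against 16.0 to 27.2 TPM in vector tumors (log2 change 2.58, adjusted p = 5.82e-05), and C9, its pore-forming member, at 66.8, 91.7, 58.3 and 72.5 TPM with Aoah and 13.3, 8.07, 17.5 and 12.4 TPM with vector (log2 change 2.43, adjusted p = 0.001). The mannose-binding lectin gene Mbl1 rose from 37.3 to 51.0 TPM with vector to 112 to 128 TPM with Aoah, and C4bp, an inhibitor of the classical pathway, by 1.78 on the log2 scale. C1ra, a protease that starts the classical pathway, fell (log2 change -1.16, adjusted p = 0.0383; adjusted p up to 0.122 without any 1 of Aoah 1, Aoah 3, Aoah 4, vector 1, vector 3 or vector 4). The groups did not overlap for C8g, C9 and Mbl1. The median of the list was -0.22, against -0.24 for all genes. With tumors centred on their median it was 0.10, against 0.07 for all genes. Of 29 transcription factors and nuclear receptors of hepatocytes 6 fell and 1 rose, against 14.3% and 7.93% of all genes. None of these calls held with each tumor left out in turn. Rxra, the partner of many nuclear receptors, fell (log2 change -1.88, adjusted p = 0.0151; adjusted p up to 0.0579 without either Aoah 4 or vector 3).

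Genes that mark liver zones rose in part. Of 18 pericentral genes, many of them beta-catenin targets, 5 rose and 3 fell. Over all genes 7.93% rose and 14.3% fell, so the falls in this list were near the background share. Slc1a2, a glutamate transporter of the cells around the central vein, stood at 24.6, 25.7, 12.9 and 27.4 TPM with Aoah and 1.7, 2.16, 2.39 and 3.95 TPM with vector (log2 change 2.72, adjusted p = 0.000794), and Glul, glutamine synthetase, at 460.4, 603, 225 and 452 TPM with Aoah and 178, 79.8, 189 and 167 TPM with vector (log2 change 1.49, adjusted p = 0.0135). In both genes every Aoah tumor was above every vector tumor. Rnf43, a beta-catenin target that dampens Wnt signaling, fell (log2 change -0.74, adjusted p = 0.02; adjusted p up to 0.0714 without any 1 of Aoah 3, Aoah 4, vector 3 or vector 4). Of 15 periportal genes 2 rose, against 7.93% of all genes. Among them was Pigr, which carries IgA into bile, at 42.6, 55.8, 20.4 and 52.8 TPM with Aoah and 1.49, 1.59, 4.88 and 3.15 TPM with vector (log2 change 3.54, adjusted p = 0.00215). In eicosanoid metabolism 5 of 18 genes rose and none fell, against 7.93% and 14.3% of all genes. Cyp4f14, which inactivates leukotriene B4, stood at 5.6 to 21.3 TPM in Aoah tumors against 0.18 to 0.55 TPM in vector tumors (log2 change 3.22, adjusted p = 0.000546). Of 23 genes of endoplasmic reticulum and amino acid stress 5 fell and none rose, against 14.3% and 7.93% of all genes. Xbp1, the factor spliced in the unfolded protein response, stood at 39.6 to 95.3 TPM in Aoah tumors against 140.1 to 177 TPM in vector tumors (log2 change -1.34, adjusted p = 0.00636). In the circadian list 2 of 14 genes rose and 6 fell, against 7.93% and 14.3% of all genes. Dbp stood at 3.16 to 10.9 TPM in Aoah tumors against 1.15 to 1.71 TPM in vector tumors (log2 change 1.42, adjusted p = 0.0192, and up to 0.0716 without any 1 of Aoah 1, Aoah 4, vector 3 or vector 4). Cry1 stood at 2.08 to 2.76 TPM in Aoah tumors against 4.66 to 8.24 TPM in vector tumors (log2 change -1.03, adjusted p = 0.0114). The hour of collection was not given in the labels. Among 16 hypoxia response genes 3 fell and 2 rose, against 14.3% and 7.93% of all genes. Egln3, an oxygen sensor that hypoxia induces, fell (log2 change -1.82, adjusted p = 0.00038), while Higd1a, a mitochondrial protein (log2 change 0.78, adjusted p = 0.00722), and Ankrd37 (log2 change 0.91, adjusted p = 0.0387; adjusted p up to 0.113 without any 1 of Aoah 1, Aoah 3, Aoah 4, vector 1, vector 3 or vector 4) rose. 

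In the LucOS tumors, beta chain clonotypes numbered 51, 51 and 73 with Aoah and 58, 6 and 21 with vector, so those groups overlapped, unlike the Luc tumors; the difference between the 2 models was not tested.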
